A study of Homo sapiens with 12 samples.

Results

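The 10 genes described here encode enzymes that reduce or oxidise reactive carbonyls or belong to the oxidant response: the aldo-keto reductases AKR1C1, AKR1C2, AKR1C3 and AKR1B1, the aldehyde dehydrogenases ALDH1A1, ALDH1A3 and ALDH3A2, and NQO1, GCLM and HMOX1, which are classical targets of the transcription factor NRF2. They were taken by symbol from 12 RNA-seq libraries in which 22650 gene symbols occurred. All 10 were listed, and 8 passed the filter on low values; AKR1C2 and AKR1C3 did not. The members were chosen by their FPKM (fragments per kilobase of transcript, scaled to the mapped fragments of the library) across the 4 groups of these same libraries, so their levels and differences are given as a description, with no p-value. The 8 were part of the fit over all genes, and how many passed its threshold is set once beside the share of all genes that did.

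The libraries come from Panc1 and MiaPaCa2, 2 established human lines of pancreatic ductal adenocarcinoma, with 3 libraries in each of 4 groups: Panc1 ASAP2 knockout, Panc1 wild type, MiaPaCa2 ASAP2 knockout and MiaPaCa2 wild type. ASAP2 encodes a GTPase-activating protein for ARF GTPases. No agent is named for any group. The sources used here do not give the way the knockout was made, the number of clones or whether the libraries are separate cultures, so every p-value measures only the spread between these libraries. The comparisons set knockout against wild type within each line, the knockout change in Panc1 against that in MiaPaCa2, and the wild-type cells of Panc1 against those of MiaPaCa2.

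NRF2, the product of NFE2L2, is held low by KEAP1, which hands it to a CUL3 ubiquitin ligase. Oxidants and electrophiles that modify KEAP1 let NRF2 accumulate, pair with a small MAF protein and bind antioxidant response elements at genes for glutathione synthesis, NADPH supply and carbonyl reduction, several aldo-keto reductases among them. ALDH1A1 and ALDH1A3 make retinoic acid from retinaldehyde and are the enzymes read by common assays of ALDH activity in tumour cells.

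The AKR1C genes lie side by side on chromosome 10, and the upstream windows of AKR1C1, AKR1C2 and AKR1C3 are shown because the first 2 are nearly one sequence while their levels in MiaPaCa2 were far apart. The sequences are the 250 bases before the annotated start, from RefSeq (GRCh38.p14), at chr10:4963165-4963414 on the plus strand for AKR1C1, chr10:5003858-5004107 on the minus strand for AKR1C2 and chr10:5048531-5048780 on the plus strand for AKR1C3. Capitals mark a CCAAT box, which reads ATTGG on these strands.
AKR1C1: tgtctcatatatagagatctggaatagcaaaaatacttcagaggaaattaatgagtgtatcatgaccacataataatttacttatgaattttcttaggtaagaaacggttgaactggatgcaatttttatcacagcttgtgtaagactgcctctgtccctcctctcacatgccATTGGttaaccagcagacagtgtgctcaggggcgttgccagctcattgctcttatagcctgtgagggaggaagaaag
AKR1C2: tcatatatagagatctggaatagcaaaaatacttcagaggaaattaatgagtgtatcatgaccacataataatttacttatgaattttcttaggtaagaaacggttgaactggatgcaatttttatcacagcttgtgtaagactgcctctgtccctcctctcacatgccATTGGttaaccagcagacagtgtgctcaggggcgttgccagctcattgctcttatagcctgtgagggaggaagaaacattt
AKR1C3: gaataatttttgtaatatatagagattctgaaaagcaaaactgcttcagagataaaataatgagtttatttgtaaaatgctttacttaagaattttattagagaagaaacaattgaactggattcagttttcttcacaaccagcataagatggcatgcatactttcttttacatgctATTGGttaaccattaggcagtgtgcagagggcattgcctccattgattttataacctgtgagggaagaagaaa
AKR1C1 and AKR1C2 were identical at 245 of 246 aligned bases (99.6%), in 1 run of 245, and AKR1C1 and AKR1C3 at 185 of 241 (76.8%). AKR1C3 has another annotated start, whose window begins at chr10:5094164 and is not shown. That window was identical to AKR1C1 at 184 of 234 aligned bases (78.6%), and the window with more identical bases was printed. The letters CCAAT, searched on both strands, stood in 32.0% of all 35116 windows of this length. They stood in 8 of 12 member windows, those of 7 of the 9 members with a window.

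The window of GCLM is shown because it was the only 1 of 12 member windows with the core of the antioxidant response element, TGACNNNGC, which stood in 10.9% of all windows. It lies at chr1:93909431-93909680 on the minus strand (GRCh38.p14), and the capitals mark the core, which reads on the other strand, 34 to 26 bases before the start.
GCLM: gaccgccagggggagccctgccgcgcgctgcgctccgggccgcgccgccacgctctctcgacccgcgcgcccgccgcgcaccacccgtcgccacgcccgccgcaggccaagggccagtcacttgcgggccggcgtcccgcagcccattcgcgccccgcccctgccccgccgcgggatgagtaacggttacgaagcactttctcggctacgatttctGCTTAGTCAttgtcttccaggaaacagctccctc
The GC box GGGCGG stood in 42.6% of all windows and in 6 of 12 member windows, those of 5 of the 9 members. A match or its absence in these 250 bases describes the letters alone.

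The labels were set against ASAP2 first. ASAP2 (chr2:9346894-9545812, GRCh37) measured 14.2, 14.5 and 12.7 FPKM in Panc1 knockout libraries, against 38.6, 37.5 and 34.6 FPKM in Panc1 wild-type libraries. It was lower in Panc1 knockout (log2 change −1.36, SE 0.07, limma adjusted p = 1.5e-08). In libraries labelled MiaPaCa2 knockout it measured 12.01, 13.8 and 11.3 FPKM, against 13.2, 13.6 and 13.8 FPKM in MiaPaCa2 wild type (log2 change −0.13, limma adjusted p = 0.197). Without MiaPaCa2 knockout replicate 2 that change was −0.20 (limma adjusted p = 0.0315). The MiaPaCa2 groups overlap in ASAP2 level, so those libraries are named by their labels throughout.

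The libraries listed 17958 to 19105 genes each, and their FPKM summed to between 360765 and 392610. Read depth is unknown. Libraries of 1 group correlated at r = 0.9935 to 0.9969 on log2(FPKM + 1), and libraries of different lines at 0.8032 to 0.827. KRT8 and KRT18, keratins of ductal epithelium, were at 301.8 to 656.4 FPKM. KRT19 had 228.7 to 276.4 FPKM in Panc1 knockout, against 538.6 to 542.8 FPKM in Panc1 wild type, and 31.8 to 39.2 FPKM in the libraries labelled MiaPaCa2 knockout, against 102.4 to 108.5 FPKM in MiaPaCa2 wild type. KRT19 groups did not overlap in either line, and its part in the results was not tested. KRT7 was at 2.20 to 3.45 FPKM in Panc1 and did not exceed 0.081 FPKM in MiaPaCa2, and EPCAM was at 2.29 to 3.97 FPKM in Panc1 and at 0 in all 6 MiaPaCa2 libraries. Summed markers of leukocytes, endothelium and fibroblasts did not exceed 0.83 FPKM in any library. A few libraries held traces of genes that only the other line expressed strongly: of 7 genes at 20 FPKM or more in MiaPaCa2, 6 stood above 0.1 FPKM in Panc1 wild-type replicate 1 (median 1.206% of the MiaPaCa2 level) and 6 in Panc1 knockout replicate 3 (median 0.373%). In the other direction, 20 of 36 genes did so in MiaPaCa2 wild-type replicate 1 (median 0.23%). The Panc1 values of AKR1C1 and ALDH1A1, which were near 0 in the other Panc1 libraries, are given with and without them.

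Knockout libraries of Panc1 were shifted as a whole: the median log2 change of all 13340 genes tested was −0.102 in Panc1, and 0.003 after rescaling by the median ratio. In MiaPaCa2 it was 0.011. Changes relative to this median are given for the members in Panc1.

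AKR1C1 (chr10:5005445-5025475, GRCh37), which reduces progesterone and many xenobiotic carbonyls, was among the genes that differed most between the MiaPaCa2 groups. It stood at 53.9, 68.7 and 67.1 FPKM in the libraries labelled MiaPaCa2 knockout, against 17.2, 12.7 and 11 FPKM in MiaPaCa2 wild type. Every knockout library was above every wild-type library. The means were 63.2 ± 8.11 FPKM and 13.6 ± 3.22 FPKM (SD, n = 3 each), a ratio of 4.63, and the fitted log2 change of 2.15 (SE 0.21) was number 6 from the highest among 13340 genes. It lay between 2.02 and 2.32 when each library was left out in turn.

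In Panc1 the same gene was nearly silent. AKR1C1 measured 0.021, 0.034 and 0.026 FPKM in Panc1 knockout libraries, against 0.868, 0 and 0 FPKM in Panc1 wild type, where a gene missing from a library counts as 0. The groups overlap, and the only level above 0.1 FPKM came from wild-type replicate 1, a library with traces of MiaPaCa2 genes. The fitted log2 change was −0.26 with this library and 0.04 without it, and the part of the traces in that value was not tested.

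AKR1C2 (chr10:5029967-5060223, GRCh37) and AKR1C3 (chr10:5077546-5149878, GRCh37), reductases of the neighbouring genes that act on steroids and prostaglandins, were low everywhere. AKR1C2 had 0.431, 0.721 and 0.804 FPKM in the libraries labelled MiaPaCa2 knockout, against 0.399, 0.415 and 0.475 FPKM in MiaPaCa2 wild type. AKR1C3 had 0.308, 0.46 and 0.463 FPKM in the knockout libraries, against 0.162, 0.228 and 0.386 FPKM in the wild type. Both pairs of groups overlap, and in Panc1 neither gene exceeded 0.078 FPKM. On this per-length scale the mean of AKR1C1 was 97.0 times that of AKR1C2 in MiaPaCa2 knockout and 31.8 times in MiaPaCa2 wild type. The sources used here do not say how the authors assigned reads that fit both genes, so the split between AKR1C1 and AKR1C2 is uncertain.

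AKR1B1 (chr7:134127108-134144036, GRCh37), aldose reductase, which turns glucose into sorbitol and reduces lipid aldehydes, had the opposite line preference. It measured 44.4, 46.5 and 46.6 FPKM in Panc1 knockout libraries, against 62.2, 64.3 and 64.6 FPKM in Panc1 wild type. No library overlapped, and the log2 change was −0.47 (SE 0.06), or −0.36 relative to the all-gene median. Genes of chromosome 7 as a group were lower in Panc1 knockout as well, with a median log2 change of −0.336 over 582 genes against −0.091 on the other chromosomes; the part of this chromosome-wide shift in the AKR1B1 value was not tested. In MiaPaCa2, AKR1B1 had 19.8, 17.8 and 20.1 FPKM in the libraries labelled knockout, against 17.6, 19.8 and 19.9 FPKM in wild type, and the groups overlap (log2 change 0.01, SE 0.06).

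**Figure D1:**
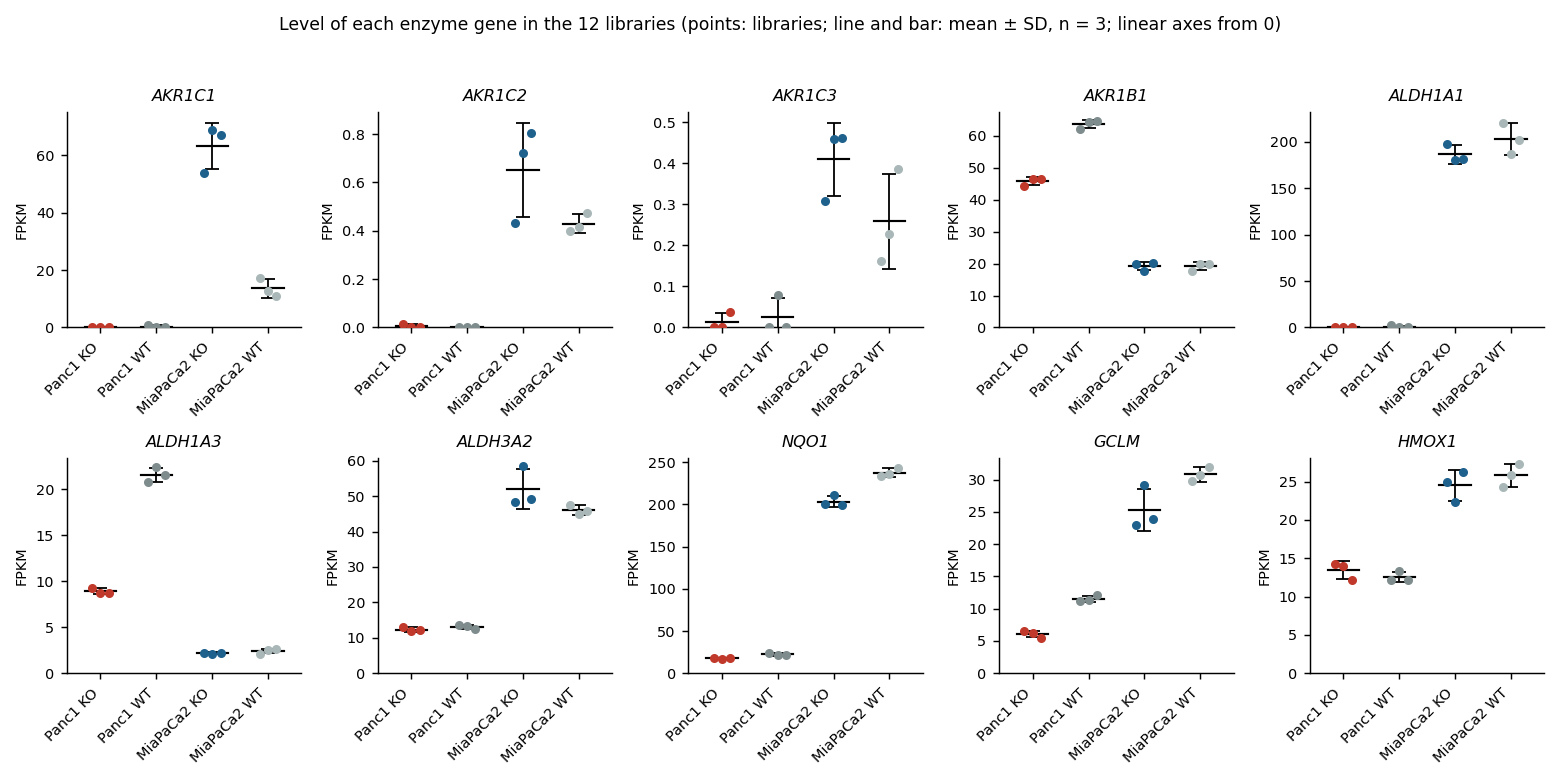
FPKM of each of the 10 genes on a linear axis from 0, by group, with a point per library and the mean ± SD (n = 3). AKR1C1 stands at 53.9 to 68.7 FPKM in MiaPaCa2 knockout and at 11 to 17.2 FPKM in MiaPaCa2 wild type, and ALDH1A3 at 8.70 to 9.32 FPKM in Panc1 knockout and at 20.8 to 22.4 FPKM in Panc1 wild type.

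Of 9 further family members, 3 passed the filter; in Panc1 knockout 2 rose and none fell, and in MiaPaCa2 none rose and 1 fell. The background for these counts was 63.5% of all 13340 genes called in Panc1 and 34.1% in MiaPaCa2, at a limma adjusted p below 0.05. AKR7A2, a reductase of dialdehydes and succinic semialdehyde, moved in opposite directions. It had 24.7, 26.8 and 27.4 FPKM in Panc1 knockout, against 21.7, 20.3 and 21.0 FPKM in Panc1 wild type (log2 change 0.31, SE 0.05, limma adjusted p = 0.0002). It had 22.9, 21.6 and 23.7 FPKM in MiaPaCa2 knockout, against 30.2, 29.5 and 27.9 FPKM in MiaPaCa2 wild type (log2 change −0.35, SE 0.05, limma adjusted p = 0.00034). AKR1A1, aldehyde reductase, averaged 45.4 ± 2.08 FPKM in Panc1 knockout and 40.5 ± 1.54 FPKM in Panc1 wild type (SD, n = 3 each), a log2 change of 0.16 (limma adjusted p = 0.0125). That call was lost without Panc1 knockout replicate 3 (limma adjusted p = 0.0577), without Panc1 wild-type replicate 3 (0.0556) and with each library rescaled to the same sum (0.148).

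The pair of retinaldehyde dehydrogenases split by line. ALDH1A1 (chr9:75515587-75695358, GRCh37) measured 198.2, 180.4 and 181.3 FPKM in the libraries labelled MiaPaCa2 knockout, against 220.9, 186.8 and 202.3 FPKM in MiaPaCa2 wild type. These groups overlap (log2 change −0.12, SE 0.36). In Panc1 it had 0.02, 0.06 and 0.971 FPKM in knockout libraries, against 2.24, 0.039 and 0.059 FPKM in wild type. The highest value of each Panc1 group belongs to a library with traces of MiaPaCa2 genes. The fitted log2 change in Panc1 was −0.25, with 0.30 when wild-type replicate 1 was left out and −0.55 when knockout replicate 3 was left out, so it has no settled direction. The part of the traces in it was not tested.

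ALDH1A3 (chr15:101417919-101456831, GRCh37) was the higher of this pair in Panc1 and the member with the largest log2 knockout change there. It measured 9.32, 8.70 and 8.74 FPKM in Panc1 knockout libraries, against 20.8, 22.4 and 21.6 FPKM in Panc1 wild type. The means were 8.92 ± 0.348 FPKM and 21.6 ± 0.803 FPKM (SD, n = 3 each), with no overlap. The log2 change was −1.19 (SE 0.06), or −1.08 relative to the all-gene median, and ranked number 77 from the lowest among 13340 genes. In MiaPaCa2 it had 2.26, 2.11 and 2.23 FPKM in the libraries labelled knockout, against 2.15, 2.49 and 2.63 FPKM in wild type, where the groups overlap (log2 change −0.10, SE 0.06). Annotated lncRNAs overlap ALDH1A3 on both strands, of which ALDH1A3-AS1 was looked up and is not listed, and the sources used here do not say whether counting used strand.

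The ratio of both enzymes differed between the lines more than between the genotypes. The mean of ALDH1A1 was 84.9 times that of ALDH1A3 in MiaPaCa2 knockout and 83.9 times in MiaPaCa2 wild type. In Panc1 the mean of ALDH1A3 was 25.5 times that of ALDH1A1 in knockout and 27.7 times in wild type, and the median of the ratio per library, less moved by the trace libraries, was 144.95 in knockout and 365.3 in wild type.

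Of 11 other genes tested in the retinoic acid list, 4 rose and 3 fell in Panc1 knockout, a share near the 63.5% of all genes called there, with a median log2 change of 0.02 against −0.102 for all genes. Those that fell included RDH10 and CRABP2, which act before and after ALDH1A3. RDH10, which oxidises retinol to the retinaldehyde that ALDH1A3 consumes, had 1.53, 1.31 and 1.49 FPKM in Panc1 knockout, against 3.38, 3.83 and 3.74 FPKM in Panc1 wild type (log2 change −0.93, SE 0.07, limma adjusted p = 5.2e-07). CRABP2, which carries retinoic acid to its nuclear receptors, had 52.2, 57.5 and 64.3 FPKM in Panc1 knockout, against 106.6, 108.0 and 105.5 FPKM in Panc1 wild type (log2 change −0.87, SE 0.10, limma adjusted p = 1.3e-05). Neither gene overlapped between the Panc1 groups. In MiaPaCa2, CRABP2 had 0.179, 0.38 and 0.046 FPKM in the libraries labelled knockout, against 0.751, 0.448 and 0.493 FPKM in wild type. These low levels did not overlap, and the log2 change was −0.49 to −0.29 with each library left out in turn. RDH10 did not exceed 0.856 FPKM in MiaPaCa2, and the list had 2 genes that rose and 1 that fell. RARA, a retinoic acid receptor, was one that rose there, with 7.60, 7.46 and 7.46 FPKM in the libraries labelled knockout, against 6.21, 5.96 and 4.97 FPKM in wild type (log2 change 0.35, limma adjusted p = 0.00438).

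**Figure D2:**
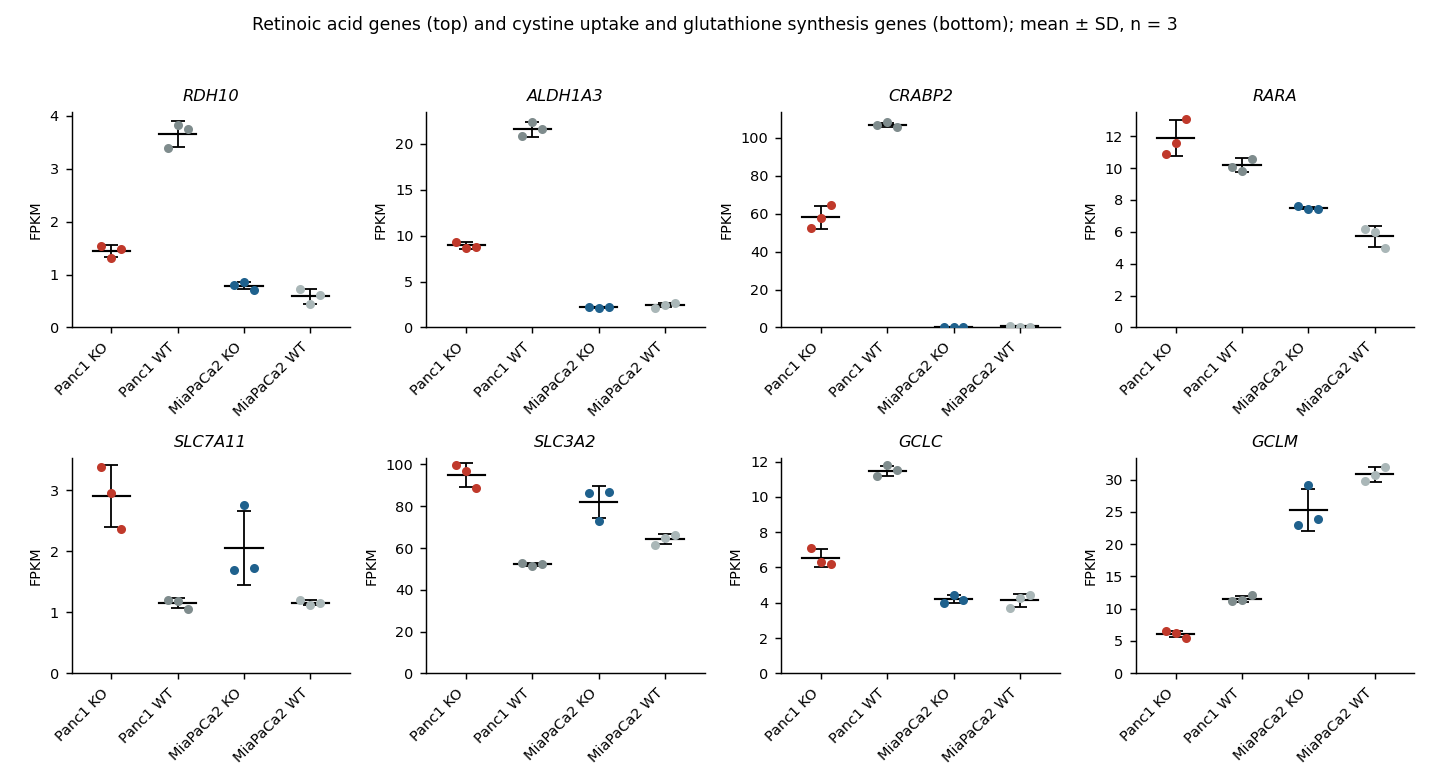
FPKM by group (points are libraries, lines and bars the mean ± SD, n = 3, linear axes from 0) of 4 retinoic acid genes in the top row and 4 genes of cystine uptake and glutathione synthesis in the bottom row. In Panc1 knockout RDH10, ALDH1A3, CRABP2, GCLC and GCLM lie below Panc1 wild type, whereas RARA, SLC7A11 and SLC3A2 lie above it.

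ALDH3A2 (chr17:19551449-19589073, GRCh37), the fatty aldehyde dehydrogenase of the endoplasmic reticulum, differed little with genotype. It had 13.0, 11.8 and 12.2 FPKM in Panc1 knockout, against 13.6, 13.3 and 12.6 FPKM in Panc1 wild type, and these groups overlap. The log2 change of −0.09 (SE 0.07) was 0.01 relative to the all-gene median, and its sign turned with median-ratio scaling (0.04) and quantile normalization (0.05). In the libraries labelled MiaPaCa2 knockout it had 48.2, 58.4 and 49.2 FPKM, against 47.6, 44.98 and 45.8 FPKM in MiaPaCa2 wild type. All knockout libraries were higher, with a log2 change of 0.16 (SE 0.07) that was 0.08 without knockout replicate 2. SLC47A2, which overlaps ALDH3A2 on the other strand, did not exceed 0.263 FPKM.

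Among 12 further aldehyde dehydrogenases tested, 5 rose and 3 fell in Panc1 knockout, and 2 rose and 4 fell in MiaPaCa2, with 63.5% and 34.1% of all genes called. ALDH1L2, the mitochondrial formyltetrahydrofolate dehydrogenase of folate metabolism, had 2.77, 2.72 and 2.53 FPKM in Panc1 knockout, against 0.707, 0.676 and 0.61 FPKM in Panc1 wild type (log2 change 1.14, SE 0.07, limma adjusted p = 4.3e-08). ALDH5A1, succinate semialdehyde dehydrogenase, averaged 1.74 ± 0.0842 FPKM in Panc1 knockout and 0.737 ± 0.0888 FPKM in Panc1 wild type (SD, n = 3 each; log2 change 0.66, limma adjusted p = 4.4e-06). With a pseudocount of 0.1, which lessens the pull on low values, the Panc1 changes were 1.86 for ALDH1L2 and 1.14 for ALDH5A1. The largest changes of the list in MiaPaCa2 were those of ALDH3B1 and ALDH3A1, both oxidases of medium and long chain or aromatic aldehydes. ALDH3B1 averaged 11.1 ± 0.488 FPKM in the libraries labelled knockout and 15.8 ± 1.57 FPKM in wild type (SD, n = 3 each; log2 change −0.47, limma adjusted p = 0.00019). ALDH3A1 averaged 1.44 ± 0.119 FPKM in knockout and 0.852 ± 0.112 FPKM in wild type (SD, n = 3 each; log2 change 0.40, limma adjusted p = 0.00085), a call lost with a pseudocount of 0.1 (limma adjusted p = 0.0678).

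Of the NRF2 enzymes, NQO1 and GCLM were lower in the knockout of both lines, and HMOX1 overlapped between the genotypes. NQO1 (chr16:69740899-69760571, GRCh37), which reduces quinones in a single step that avoids semiquinone radicals, had 17.8, 17.3 and 18.6 FPKM in Panc1 knockout, against 24.6, 21.6 and 21.3 FPKM in Panc1 wild type. It had 200.04, 211.2 and 198.9 FPKM in the libraries labelled MiaPaCa2 knockout, against 233.4, 236.2 and 243.6 FPKM in MiaPaCa2 wild type. Neither pair of groups overlaps. The log2 changes were −0.31 (SE 0.05) in Panc1, or −0.21 relative to the all-gene median, and −0.22 (SE 0.05) in MiaPaCa2. With median-ratio scaling the Panc1 value was −0.18.

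GCLM (chr1:94350755-94375012, GRCh37) encodes the modifier subunit of glutamate-cysteine ligase, the rate-limiting enzyme of glutathione synthesis. It measured 6.51, 6.18 and 5.52 FPKM in Panc1 knockout libraries, against 11.2, 11.4 and 12.1 FPKM in Panc1 wild type. The means were 6.07 ± 0.508 FPKM and 11.6 ± 0.474 FPKM (SD, n = 3 each), with a log2 change of −0.83 (SE 0.08), or −0.73 relative to the all-gene median. No Panc1 library overlapped. In the libraries labelled MiaPaCa2 knockout GCLM had 23.0, 29.1 and 23.9 FPKM, against 29.7, 30.7 and 32.0 FPKM in MiaPaCa2 wild type. Knockout replicate 2 lay just under the wild-type range, and the log2 change of −0.28 (SE 0.08) was −0.38 without it.

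The catalytic subunit GCLC, which lies outside the rule for named genes and was chosen after its values were seen, was lower in Panc1 knockout too. It had 7.11, 6.29 and 6.19 FPKM in Panc1 knockout, against 11.2, 11.8 and 11.5 FPKM in Panc1 wild type (log2 change −0.73, SE 0.07, limma adjusted p = 1.7e-06). In MiaPaCa2 it averaged 4.20 ± 0.240 FPKM in the libraries labelled knockout and 4.13 ± 0.379 FPKM in wild type (SD, n = 3 each; log2 change 0.02, limma adjusted p = 0.847). The difference between the knockout changes (Panc1 minus MiaPaCa2) was −0.75 (limma adjusted p = 4e-05). On the per-length scale the mean of GCLM was 0.930 times that of GCLC in Panc1 knockout and 1.01 times in Panc1 wild type, but 6.03 times in MiaPaCa2 knockout and 7.47 times in MiaPaCa2 wild type.

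Both chains of the cystine importer that feeds this pathway went the other way. SLC7A11, the transporting chain, had 3.39, 2.95 and 2.37 FPKM in Panc1 knockout, against 1.21, 1.19 and 1.06 FPKM in Panc1 wild type (log2 change 0.85, SE 0.12, limma adjusted p = 5.8e-05). It had 1.70, 2.76 and 1.73 FPKM in the libraries labelled MiaPaCa2 knockout, against 1.202, 1.12 and 1.15 FPKM in MiaPaCa2 wild type (log2 change 0.49, SE 0.12, limma adjusted p = 0.00829), or 0.75 with a pseudocount of 0.1. SLC3A2, the heavy chain it shares with other amino acid transporters, averaged 95.03 ± 5.60 FPKM in Panc1 knockout and 52.2 ± 0.572 FPKM in Panc1 wild type (SD, n = 3 each; log2 change 0.85, limma adjusted p = 3.2e-07). In MiaPaCa2 it averaged 82.0 ± 7.83 FPKM in the libraries labelled knockout and 64.2 ± 2.35 FPKM in wild type (SD, n = 3 each), a log2 change of 0.34 (limma adjusted p = 0.00153). GSS, another glutathione synthesis gene, named after its values were seen, was higher in Panc1 knockout too. It averaged 40.6 ± 1.05 FPKM there and 30.9 ± 0.480 FPKM in Panc1 wild type (SD, n = 3 each). Its log2 change was 0.39 in Panc1 (limma adjusted p = 0.00013) and −0.06 in MiaPaCa2 (limma adjusted p = 0.482).

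All 14 glutathione and thioredoxin genes tested passed the test in Panc1 knockout, 5 higher and 9 lower. Of all genes, 63.5% were called there, 21.8% higher and 41.6% lower. The median log2 change of the 14 was −0.31 against −0.102 for all genes. PRDX1 was called lower at −0.11 (limma adjusted p = 0.0336), which was −0.007 relative to the all-gene median. The list was chosen with earlier results of these data known, so nothing is read from the count. In MiaPaCa2, where 34.1% of all genes were called, 2 rose and none fell, with a median of 0.005 against 0.011 for all genes. GLRX, a glutaredoxin that removes glutathione from protein thiols, had 2.96, 3.32 and 2.25 FPKM in Panc1 knockout, against 6.66, 5.80 and 6.61 FPKM in Panc1 wild type (log2 change −0.95, SE 0.12, limma adjusted p = 1.8e-05). GSTM3, a glutathione transferase, averaged 8.01 ± 0.180 FPKM in the libraries labelled MiaPaCa2 knockout and 5.84 ± 0.273 FPKM in MiaPaCa2 wild type (SD, n = 3 each; log2 change 0.40, limma adjusted p = 4.8e-05). GSTM3 was higher in Panc1 knockout as well, at 12.7 ± 0.210 FPKM against 9.51 ± 0.195 FPKM in Panc1 wild type (SD, n = 3 each). The log2 change there was 0.38 (limma adjusted p = 1.4e-05). GSTM genes are close copies of each other, and reads could have been divided between them.

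HMOX1 (chr22:35776354-35790207, GRCh37), which opens heme to biliverdin, iron and carbon monoxide, overlapped between the genotypes in both lines. It had 14.3, 14.01 and 12.2 FPKM in Panc1 knockout, against 12.2, 13.3 and 12.2 FPKM in Panc1 wild type. It had 24.9, 22.4 and 26.3 FPKM in the libraries labelled MiaPaCa2 knockout, against 24.3, 25.8 and 27.3 FPKM in MiaPaCa2 wild type. Both pairs of groups overlap, with log2 changes of 0.10 (SE 0.07) in Panc1, 0.20 relative to the all-gene median, and −0.07 (SE 0.07) in MiaPaCa2.

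Of 10 other genes tested in the heme and iron list, 1 rose and 3 fell in each line, where 63.5% of all genes were called in Panc1 and 34.1% in MiaPaCa2, so the Panc1 count is below the share of all genes. TFRC, the transferrin receptor, had 61.8, 55.3 and 63.9 FPKM in Panc1 knockout, against 114.8, 114.8 and 104.7 FPKM in Panc1 wild type (log2 change −0.88, SE 0.06, limma adjusted p = 1.5e-07). FTH1, the ferritin heavy chain, had 633.5, 683.1 and 727.8 FPKM in Panc1 knockout, against 485.5, 460.3 and 486.9 FPKM in Panc1 wild type (log2 change 0.51, SE 0.06, limma adjusted p = 2e-05). With quantile normalization the FTH1 change was 0.32 (limma adjusted p = 0.006). FTH1 has processed copies in the genome, so its level depends on how shared reads were assigned. In MiaPaCa2, SLC48A1, a heme transporter, averaged 4.25 ± 0.220 FPKM in the libraries labelled knockout and 5.65 ± 0.753 FPKM in wild type (SD, n = 3 each; log2 change −0.34, limma adjusted p = 0.00695), a call lost with that line fitted alone (limma adjusted p = 0.0532). BLVRA, which turns biliverdin into bilirubin, averaged 28.5 ± 0.669 FPKM in knockout and 22.6 ± 1.86 FPKM in wild type (SD, n = 3 each; log2 change 0.32, limma adjusted p = 0.00257).

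**Figure D3:**
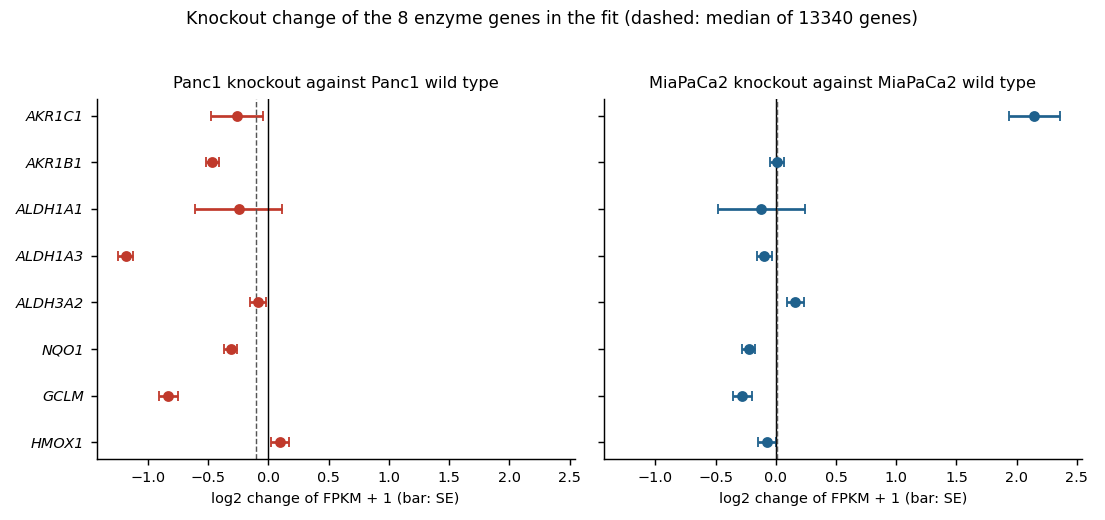
Fitted log2 change of FPKM + 1, knockout minus wild type, with its SE, for the 8 genes in the fit, Panc1 on the left and MiaPaCa2 on the right; the dashed line is the median of all 13340 genes. ALDH1A3 at −1.19 and GCLM at −0.83 lie lowest in Panc1, and AKR1C1 at 2.15 lies alone on the right in MiaPaCa2.

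Counted by the threshold used for all genes, 4 of the 8 members in the fit were called in Panc1, all of them lower (AKR1B1, ALDH1A3, GCLM and NQO1), where 63.5% of all genes were called and 41.6% were called lower. The groups did not overlap for 70.1% of all genes in Panc1, 45.3% with knockout lower, and for 43.5% in MiaPaCa2. In MiaPaCa2, 1 was called higher (AKR1C1) and 2 lower (GCLM and NQO1), where 34.1% of all genes were called. For the difference between these 2 knockout changes (Panc1 minus MiaPaCa2), 5 were called, all lower (AKR1C1, AKR1B1, ALDH1A3, ALDH3A2 and GCLM), where 57.4% of all genes were called and 37.4% were called lower. The members were named with these contrasts known, so nothing is read from their counts. The median log2 change of the 8 was −0.29 in Panc1 and −0.08 in MiaPaCa2. Bulk libraries cannot tell fewer expressing cells from less RNA per cell.

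Of 10 regulators of NRF2 tested, 5 rose and 3 fell in Panc1 knockout, and 2 rose and 2 fell in MiaPaCa2, where 63.5% and 34.1% of all genes were called. NFE2L2, which encodes NRF2 itself, had 22.8, 21.5 and 19.9 FPKM in Panc1 knockout, against 29.0, 29.4 and 25.3 FPKM in Panc1 wild type (log2 change −0.37, SE 0.10, limma adjusted p = 0.00497). In MiaPaCa2 it averaged 18.9 ± 2.95 FPKM in the libraries labelled knockout and 19.6 ± 0.876 FPKM in wild type (SD, n = 3 each; log2 change −0.06, limma adjusted p = 0.678). With median-ratio scaling the Panc1 value of NFE2L2 was −0.24 (limma adjusted p = 0.0424). NRF2 is regulated mainly as a protein, which these libraries do not measure. MAFK, a small MAF partner, averaged 33.2 ± 1.58 FPKM in Panc1 knockout and 26.6 ± 0.652 FPKM in Panc1 wild type (SD, n = 3 each; log2 change 0.31, limma adjusted p = 0.00106). MAFF, another small MAF, had 5.41, 6.21 and 5.64 FPKM in the libraries labelled MiaPaCa2 knockout, against 3.17, 3.01 and 2.80 FPKM in MiaPaCa2 wild type (log2 change 0.76, SE 0.08, limma adjusted p = 3e-05). NFE2L3, a relative of NFE2L2, averaged 21.9 ± 1.03 FPKM in MiaPaCa2 knockout and 28.1 ± 1.06 FPKM in MiaPaCa2 wild type (SD, n = 3 each; log2 change −0.34, limma adjusted p = 0.00623). KEAP1, named after its values were seen, averaged 31.3 ± 1.19 FPKM in Panc1 knockout and 34.3 ± 0.948 FPKM in Panc1 wild type (SD, n = 3 each; limma adjusted p = 0.14). In MiaPaCa2 it averaged 26.4 ± 2.15 FPKM in knockout and 30.7 ± 3.11 FPKM in wild type (SD, n = 3 each; limma adjusted p = 0.0412), with overlap. That call was lost with the line fitted alone (limma adjusted p = 0.15) and without any 1 of 9 libraries (limma adjusted p = 0.0518 to 0.173).

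Genes of NADPH supply, quinone and drug handling gave 3 higher and 7 lower of 17 tested in Panc1 knockout, and 3 higher and 5 lower in MiaPaCa2, with 63.5% of all genes called in Panc1 and 34.1% in MiaPaCa2. CBR1, a carbonyl reductase of another enzyme family, had 9.99, 10.3 and 10.1 FPKM in Panc1 knockout, against 15.4, 14.8 and 15.9 FPKM in Panc1 wild type (log2 change −0.56, SE 0.05, limma adjusted p = 1.4e-06). SQSTM1, an autophagy receptor that binds KEAP1, had 182.6, 221.2 and 185.5 FPKM in the libraries labelled MiaPaCa2 knockout, against 145.4, 126.6 and 126.4 FPKM in MiaPaCa2 wild type (log2 change 0.56, SE 0.07, limma adjusted p = 0.0001). ABCC2, an exporter of glutathione conjugates, averaged 12.1 ± 0.679 FPKM in MiaPaCa2 knockout and 17.8 ± 1.48 FPKM in MiaPaCa2 wild type (SD, n = 3 each; log2 change −0.53, limma adjusted p = 0.00042), a call lost with a pseudocount of 0.1 (limma adjusted p = 0.0924).

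Over all 7 lists, 25 of 77 tested genes other than the members rose and 28 fell in Panc1 knockout, where 63.5% of all genes were called. The median log2 change of the 77 was −0.01 against −0.102 for all genes. The split depends on scaling: 52.8% of the calls were lower as deposited, 63.5% with each library rescaled to the same sum, 43.4% with quantile normalization and 34.6% with median-ratio scaling (34 higher and 18 lower). In MiaPaCa2, 12 rose and 16 fell, where 34.1% of all genes were called. With quantile normalization 46.7% of the listed calls there were lower, against 57.1% as deposited. Without MiaPaCa2 wild-type replicate 2 the lower count was 10, and without MiaPaCa2 wild-type replicate 1, a library with traces of the other line, 18 rose and 11 fell. Without Panc1 wild-type replicate 1 the Panc1 counts were 22 and 22, and without Panc1 knockout replicate 3 they were 23 and 24. The difference between the lines passed the test for 40 of the 77 genes, 19 higher and 21 lower in Panc1, where 57.4% of all genes were called. With median-ratio scaling the counts were 29 and 16, and with quantile normalization 26 and 19.

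**Figure D4:**
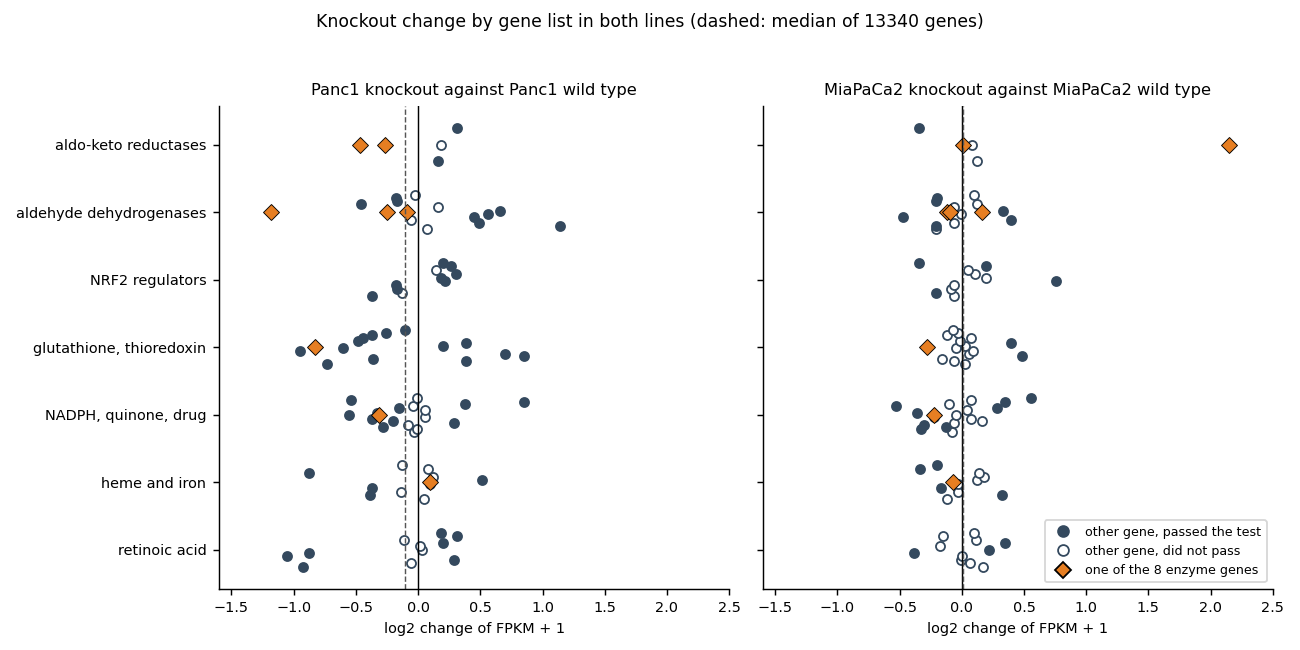
Log2 change of FPKM + 1, knockout minus wild type, of the tested genes of the 7 lists in Panc1 (left) and MiaPaCa2 (right); filled circles passed the test, open circles did not, and diamonds are the members, drawn without regard to the threshold. Glutathione and thioredoxin genes lie on both sides of 0 in Panc1, and AKR1C1 at 2.15 stands apart in MiaPaCa2.

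Between the wild-type lines the members were far apart. All 8 in the fit were called, 2 higher and 6 lower in Panc1, where 82.7% of all genes were called (41.8% higher and 40.9% lower), so the count says little about them. NQO1 averaged 22.5 ± 1.83 FPKM in Panc1 and 237.7 ± 5.26 FPKM in MiaPaCa2 (SD, n = 3 each), a log2 difference of −3.35. ALDH1A1 gave −7.06, the lowest value of all 13340 genes, and AKR1C1 gave −3.55. Without Panc1 wild-type replicate 1 these were −7.60 and −3.85. GCLM (−1.34), ALDH3A2 (−1.73) and HMOX1 (−0.98) were lower in Panc1 as well. AKR1B1 (1.69) and ALDH1A3 (2.72) were higher in Panc1. None of the 8 overlapped between these groups, where 84.9% of all genes did not (42.8% with Panc1 higher and 42.1% with Panc1 lower).

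Other genes of the lists split the same lines, where 82.7% of all genes were called, 41.8% higher and 40.9% lower in Panc1. Of the 12 further aldehyde dehydrogenases, 1 was higher and 11 were lower in Panc1, with a median log2 difference of −0.93 against 0.004 for all genes. ALDH7A1, an oxidase of lysine breakdown, averaged 8.63 ± 0.489 FPKM in Panc1 and 47.1 ± 3.90 FPKM in MiaPaCa2 (SD, n = 3 each; log2 difference −2.32, limma adjusted p = 6.6e-13). Of 11 retinoic acid genes, 8 were higher and 3 lower in Panc1. CRABP2 averaged 106.7 ± 1.25 FPKM in Panc1 and 0.564 ± 0.164 FPKM in MiaPaCa2 (SD, n = 3 each; log2 difference 6.11, limma adjusted p = 1.3e-14). The exporters of glutathione conjugates were swapped between the lines. ABCC1 averaged 128.4 ± 3.31 FPKM in Panc1 and 7.69 ± 0.392 FPKM in MiaPaCa2 (SD, n = 3 each; log2 difference 3.90, limma adjusted p = 1e-15). ABCC2 averaged 0.172 ± 0.102 FPKM in Panc1 and 17.8 ± 1.48 FPKM in MiaPaCa2 (SD, n = 3 each; log2 difference −4.01, limma adjusted p = 7.3e-14). MGST1, a microsomal glutathione transferase, averaged 0.831 ± 0.331 FPKM in Panc1 and 41.9 ± 4.02 FPKM in MiaPaCa2 (SD, n = 3 each; log2 difference −4.56, limma adjusted p = 3.9e-12). FTL, the ferritin light chain, and BLVRB, a biliverdin reductase, were lower in Panc1 by log2 differences of −2.63 (limma adjusted p = 5.7e-13) and −2.93 (limma adjusted p = 1.9e-12).

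Among tested genes other than the members, the gene whose log2(FPKM + 1) followed each member most closely over the 12 libraries was found by Pearson's r. This description mostly reflects the split into lines. For AKR1C1 it was LYZ, the lysozyme gene (r = 0.9979), which averaged 121.7 FPKM in MiaPaCa2 knockout, 28.7 FPKM in MiaPaCa2 wild type and no more than 0.365 FPKM in either Panc1 group. For ALDH1A3 it was PPM1L (r = 0.9991), at 2.41 FPKM in Panc1 knockout and 5.91 FPKM in Panc1 wild type, and at 0.311 FPKM in MiaPaCa2 knockout and 0.352 FPKM in MiaPaCa2 wild type. ALDH1A1 was closest to UCA1 (r = 0.9988), NQO1 to FERMT1 (r = 0.9993), GCLM to SRPK1 (r = 0.9977) and AKR1B1 to BET1L (r = 0.9987). ALDH3A2 was closest to PPP1R26-AS1 (r = 0.9986), HMOX1 to RPA1 (r = 0.9924), AKR1C2 to KLF15 (r = 0.9831) and AKR1C3 to KIAA0753 (r = 0.9595). NQO1 had 380 genes at r of 0.99 or more and AKR1C1 had 25.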

How the data were processed

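RNA-seq gave FPKM in the 12 libraries. ISOGEN II served for RNA extraction and a BGISEQ-500 for sequencing, per the labels' protocols. The authors, per the design text and the submitters' processing notes, trimmed adaptors, removed poor reads, aligned to hg19 with TopHat2 2.0.14 and calculated FPKM with STAR 2.5.2a. The deposited FPKM have 3 decimals. The sources used here do not give library kit, strandedness or read number. FPKM steps of single reads were searched for in 1567 to 1813 low genes per pair of libraries of a group. They did not line up (the fullest bin held 2.52 to 4.54%), so depth is unknown and no count test or counting interval is given.

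A gene missing from a library was taken as 0. Values were fitted as log2(FPKM + 1) with limma 3.58.1 (R 4.3.3), so folds of low genes are understated, with 4 group means over 12 libraries (8 residual degrees of freedom), a trended prior and two-sided tests. Benjamini-Hochberg adjustment covered 13340 genes, those that averaged 1 FPKM or more in the 6 libraries of either line. Calls have an adjusted p below 0.05. The script was tested on simulated data. The members and the 7 lists (aldo-keto reductases, aldehyde dehydrogenases, NRF2 regulators, glutathione and thioredoxin, NADPH with quinone and drug handling, heme and iron, retinoic acid; 93 further genes, 92 in the files, 77 tested) were chosen with earlier results of these data known. Named genes are ASAP2, the members, and per list and comparison up to 2 called genes that changed most, without overlap and averaging 1 FPKM or more where higher, plus the most alike gene of each member; a selection is printed, a gene that the rule names is not reported here, and GCLC and KEAP1 were added after their values were seen. Gene positions came from GENCODE mapped to GRCh37 and upstream windows from RefSeq, which matched 9 of the 10 members (not HMOX1). Window identity was computed with Biopython 1.88. Alternatives were 11 settings and each library left out.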

Additional observations from a re-analysis of the deposited data

Results flagged for a closer look

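For 23 named genes the knockout change differed between the lines by the interaction term of limma over all 13340 genes. GSS, also named after its values were seen, was called too (0.45, limma adjusted p = 0.00087) but is not counted in the 23. DHRS3 was not called (0.30, limma adjusted p = 0.0696). The same term was called for 57.4% of all genes. Apart from ASAP2, these genes were named by their changes in these same data or after their values were seen, so nothing is read from the count. Each value here is the log2 change in Panc1 minus that in MiaPaCa2, with its limma adjusted p. No cause was tested. The 2 lines differ in ASAP2 itself, at −1.23 (adjusted p = 1.3e-06).

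Among reductases and dehydrogenases, the values were 0.66 for AKR7A2 (adjusted p = 1.4e-05), 1.35 for ALDH1L2 (3.9e-07), 0.33 for ALDH5A1 (0.0115), 0.92 for ALDH3B1 (6e-06), −0.45 for ALDH3A1 (0.00171) and −0.58 for ALDH7A1 (0.00011). AKR7A2, ALDH1L2 and ALDH3B1 passed the test in opposite directions in the 2 lines, higher in Panc1 knockout and lower in MiaPaCa2 knockout. The MiaPaCa2 call of ALDH1L2 (log2 change −0.21, limma adjusted p = 0.0315) was lost without MiaPaCa2 knockout replicate 1 (0.129) or 3 (0.0754) and without MiaPaCa2 wild-type replicate 1 (0.114) or 3 (0.0627).

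Among retinoic acid genes they were −1.10 for RDH10 (4.2e-06) and −0.49 for CRABP2 (0.0124). In glutathione metabolism they were −1.03 for GLRX (0.00021), −0.75 for GCLC (4e-05) and −0.56 for MGST1 (0.0265). Levels of CRABP2 were lower in the knockout of both lines, without overlap. The CRABP2 difference was not called with median-ratio scaling (−0.36, limma adjusted p = 0.0542). That of MGST1 was not called without a filter (0.063), nor without Panc1 knockout replicate 2 (0.067), Panc1 wild-type replicate 1 (0.0672), MiaPaCa2 knockout replicate 1 (0.0556) or 2 (0.052), or MiaPaCa2 wild-type replicate 2 (0.0647).

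Among NADPH, quinone and drug genes they were 0.51 for SLC3A2 (0.00052), −0.51 for CBR1 (8.5e-05), −0.57 for SQSTM1 (0.00048), 0.49 for ABCC2 (0.00324) and −0.44 for ABCC1 (0.00016). ABCC1 passed the test in both lines, lower in Panc1 knockout (log2 change −0.16, limma adjusted p = 0.0122) and higher in MiaPaCa2 knockout (0.29, limma adjusted p = 0.00071). Its Panc1 call was lost with median-ratio scaling (−0.02, limma adjusted p = 0.767), without Panc1 knockout replicate 1 (0.052) and without Panc1 wild-type replicate 2 (0.0509). The difference for ABCC2 was not called with a pseudocount of 0.1 (0.39, limma adjusted p = 0.341).

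Among NRF2 regulators they were −0.54 for MAFF (0.00174; −0.29 with quantile normalization) and 0.54 for NFE2L3 (0.00164), and NFE2L3 was called in both lines, higher in Panc1 knockout (log2 change 0.20, limma adjusted p = 0.0495) and lower in MiaPaCa2 knockout (−0.34, limma adjusted p = 0.00623). The Panc1 call of NFE2L3 was lost with several alternatives, with an adjusted p of 0.208 without Panc1 knockout replicate 1 and 0.11 without Panc1 wild-type replicate 1. Among heme and iron genes the values were −1.01 for TFRC (1.5e-06), 0.39 for FTH1 (0.00295), 0.41 for SLC48A1 (0.00801) and −0.71 for BLVRA (5.2e-05). The FTH1 difference was not called with quantile normalization (limma adjusted p = 0.0785). BLVRA passed the test in both lines, higher in MiaPaCa2 knockout and lower in Panc1 knockout, with 14.5 ± 1.14 FPKM in Panc1 knockout and 19.2 ± 0.847 FPKM in Panc1 wild type (SD, n = 3 each; limma adjusted p = 0.00024).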

How the results depend on the processing

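Of 180 recomputed counts of listed genes, 175 stayed within 1.5 times the reported count and 5 did not. The lower count in Panc1 knockout was 18 with median-ratio scaling, where 29 genes differed upward between the lines. The higher count in MiaPaCa2 was 22 with array weights, and its lower count was 8 with each line fitted alone and 10 without MiaPaCa2 wild-type replicate 2. The cause was not tested. With each library left out in turn, the higher and lower counts were 21 to 25 and 22 to 29 in Panc1, 11 to 18 and 10 to 17 in MiaPaCa2, 18 to 22 and 17 to 23 for the difference between the lines, and 26 to 29 and 43 to 44 between the wild-type lines. The difference of CRABP2 between the lines turned to 0.39 (limma adjusted p = 0.482) with a pseudocount of 0.1, where the low MiaPaCa2 values weigh more. Of the values of members, 666 moved by less than the spread between replicates and 50 by more. Replicate numbers did not pair the samples. Deviations from the group mean of log2(FPKM + 1) were correlated between knockout and wild-type libraries of a line. Same-numbered libraries gave r = 0.017 to 0.078 in Panc1 and −0.165 to −0.002 in MiaPaCa2. Differently numbered ones gave −0.097 to 0.058 in Panc1 and −0.192 to 0.254 in MiaPaCa2. With the replicate number as a block, 23 and 27 genes were called higher and lower in Panc1, 12 and 13 in MiaPaCa2, 21 and 20 for the difference, and 29 and 43 between the wild-type lines. Depth is unknown, so levels below 1 FPKM carry an unmeasured counting error.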
